A study of Mus musculus with 15 samples.

Results

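The comparison described here is that of the genotype label in the male hearts: 4 libraries labelled Pgr knockout against 4 labelled wild type, 8 of the 15 libraries of the series, chosen by their column labels. Each library holds RNA of nuclei sorted for Pcm1, a centriolar satellite protein that marks cardiomyocyte nuclei, from mouse ventricular muscle after removal of ribosomal RNA. The other 7 libraries are female, 4 labelled knockout and 3 labelled wild type, and serve below for comparison. The series title asks about sex-specific control of heart maturation by the progesterone receptor. The labels give no strain background, no allele design and no age unit, and no label says that replicates are separate animals, so p-values measure only the spread between these libraries. Pgr reads ran against the genotype labels, and every direction is therefore given by label.

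The progesterone receptor is a transcription factor of the nuclear receptor family that enters chromatin when bound by its steroid ligand. It is best known from the uterus, ovary and mammary gland, and it shares its DNA element with the glucocorticoid, mineralocorticoid and androgen receptors. Several of the genes that stood out below belong to the circadian clock, a loop in which CLOCK and BMAL1 (the product of Arntl) bind E-boxes and drive Per, Cry and Ciart, whose proteins then repress CLOCK and BMAL1. In the heart the clock shapes daily rhythms of metabolism and of ion channels through the PAR-domain factors Dbp, Tef and Hlf.

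Total counts were 25.0, 72.1, 65.6 and 139.4 M in libraries 1 to 4 labelled knockout and 61.5, 43.4, 49.2 and 91.7 M in those labelled wild type. A floor of 3 counts in a library therefore lay between 0.0215 and 0.12 CPM, the unit of counts scaled to a common library size. Markers of other cells split these libraries: Pecam1, an endothelial adhesion molecule, stood at 46.3 and 43.9 CPM in knockout 1 and 2 and at 47.5 CPM in wild type 1, against 2.6 to 8.06 CPM in the other 5. The model therefore had a term with 2 levels for this other-cell content besides the label, which lowered the common dispersion to 0.0402, against 0.152 without the term. With the label this leaves 2 knockout and 1 wild-type library at the high level, and 2 and 3 at the low level. Wild type 2 stood apart from the others on the second principal component (12.1% of the variance) and also held Xist, an RNA made from the inactive X chromosome of female cells, at 54.2 CPM against at most 2.64 CPM in the other 7. In bulk RNA, fewer cells of a type and less RNA per cell cannot be told apart.

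Cardiomyocyte markers were abundant in all 8 libraries, and the summed markers of other cell types overlapped between the labels. The summed level of the 12 cardiomyocyte markers ranged from 68300 to 87700 CPM in the knockout-labelled libraries and from 71100 to 88200 CPM in the wild-type-labelled ones. Endothelial markers (15 genes) summed to 42.2 to 476 CPM against 28.6 to 506 CPM, and fibroblast markers (15 genes) to 87.5 to 1220 CPM against 80.1 to 890 CPM. Leukocyte markers (12 genes, of which Itgam did not pass the filter on low counts) summed to 23.5 to 127 CPM in knockout-labelled libraries and 17.3 to 170 CPM in wild-type-labelled ones. Over 11 measures, the mitochondrial share of counts among them, each exact permutation test between the labels had an adjusted p of 1, on 70 arrangements of 8 libraries. The smallest p these allow is 0.0286, so 1 fully separated measure alone could not have passed, and a difference is not excluded. With the content term, 13 of 15 endothelial and 12 of 15 fibroblast markers were below zero (median log2 fold changes -0.23 and -0.35). Without wild type 2 these medians were 0.08 and 0.14, and without the term 0.57 and 0.71.

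Pgr, the gene named in the labels (chromosome 9, 8899833 to 8968611, plus strand), was read in every library labelled knockout. It stood at 6.31, 6.09, 6.75 and 7.14 CPM in the knockout-labelled libraries, against 0.09, 0.166, 0 and 0 CPM in the wild-type-labelled ones. The groups did not overlap, with 2047 reads in all under the knockout label and 13 under the wild-type label. Its log2 fold change was 6.85 ± 0.57 (SE; edgeR quasi-likelihood, adjusted p = 0.00536), and the two-sided exact permutation p was 0.0286, the smallest that 70 arrangements allow. Permuting only within the 2 content levels gave an exact p of 0.0333, the smallest of 30 arrangements. The edgeR adjusted p of Pgr was 0.0964 without knockout 4, 0.119 without wild type 1, 0.272 in the 5 low-content libraries alone and 0.613 without the term, with log2 fold changes between 6.76 and 7.32. Counts cover whole gene bodies, introns included, and do not show whether an exon is missing. The same direction was seen in the females, at 6.74 ± 0.66.

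Across the genome, by edgeR with the term and a filter on low counts, only genes of the Pgr region passed the adjusted threshold in males. Of 18026 tested genes edgeR called 2 at an adjusted p under 0.05 (0.0111%), Pgr and the predicted gene Gm32014 beside it, both higher under the knockout label. Gm32014 (chromosome 9, 8644073 to 8740988) rose by a log2 fold change of 4.41 ± 0.43 (edgeR adjusted p = 0.00536), at 0.261, 0.378, 0.44 and 0.604 CPM against 0.015, 0.0237, 0.0236 and 0.0216 CPM. The wild-type values lay below the 3-count floors of their libraries (0.0327 to 0.0691 CPM), so the size of this fold change is uncertain. Gm32014 overlaps Trpc6 on the other strand, and the strand setting of the counting is not explained in the sources used here. Like Pgr it lost its call without knockout 4 (edgeR adjusted p = 0.0964), without wild type 1 (0.0582), in the low-content libraries alone (0.0916), without the term (0.0555) and with the replicate numbers as a block without the term (0.193), so 0 genes were called in these 5 fits. Of 172 tested genes within 20 Mb of Pgr, 8.14% had an unadjusted p under 0.05. Among them Pdgfd, which encodes platelet-derived growth factor D, stood at 48.2, 69.9, 41.2 and 41 CPM under the knockout label and at 110, 114, 114 and 149 CPM under the wild-type label. The Pdgfd groups did not overlap, and its log2 fold change of -1.36 ± 0.19 missed the threshold (edgeR adjusted p = 0.0953). Pdgfd passed it in 7 of 22 other fits: with a continuous content term (edgeR adjusted p = 0.0468), with 1 surrogate variable (0.0423), with the replicate block besides the term (0.00118), without knockout 2 (0.0205), without a filter on low counts, and by DESeq2 (9.19e-07) and limma-voom (0.0315). Its log2 fold change lay between -1.62 and -1.24 in all of them.

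Beyond that region 0 of 17854 genes were called by edgeR, and 3.84% had an unadjusted p under 0.05. Over all tested genes 699 (3.88%) had an unadjusted p under 0.05, of which 278 (1.54%) were higher and 421 (2.34%) lower under the knockout label. Whatever their p, 8307 of the 18026 had values above zero and 9719 below, the background for the counts by sign of the lists below. Groups did not overlap for 288 genes (1.6%), 137 with all knockout libraries above (0.76%) and 151 with all of them below (0.838%). DESeq2 with the same term called 22 genes beyond the region, limma-voom called 0, and edgeR with the replicate numbers as a block besides the term called 4: Samd5, Dbp, Nr4a1 and Gm16685. Without knockout 2 and without wild type 4 edgeR called 1 gene there each, Gm16685 and Ciart. Without the filter on low counts edgeR with the term called 236 genes there, Samd5 and Ciart among them. The genes described next are those with the smallest p in each direction in the main fit, 10 higher and 10 lower. In that fit, edgeR with the term and the filter on all 8 libraries, none of them passed the adjusted threshold.

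**Figure D1:**
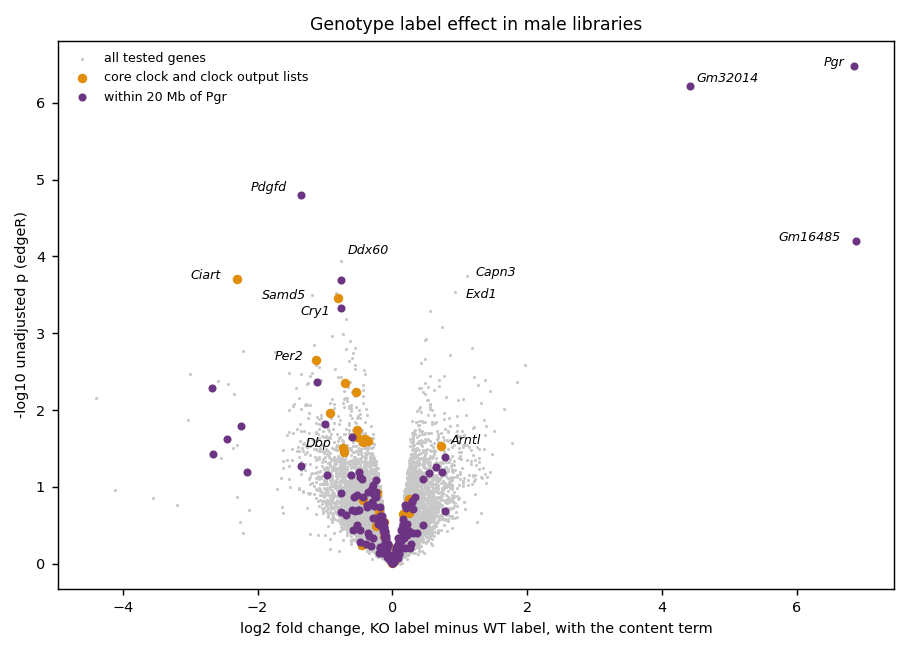
Each point is 1 of 18026 genes tested in the 8 male libraries, with the log2 fold change of the knockout minus the wild-type label on the horizontal axis and -log10 of the unadjusted edgeR p on the vertical axis. Pgr and Gm32014, called at an adjusted p under 0.05, lie at the upper right, while most clock genes (orange) lie left of zero with Arntl on the right.

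Capn3 led the higher genes. It encodes calpain 3, a calcium-activated protease of striated muscle whose loss causes a limb-girdle muscular dystrophy in humans. Capn3 (chromosome 2, 120456019 to 120504913, plus strand) stood at 5.34, 5.63, 4.48 and 6.46 CPM under the knockout label and at 2.88, 2.11, 3.04 and 1.96 CPM under the wild-type label. All knockout-labelled libraries lay above all wild-type-labelled ones, at both levels of other-cell content. The log2 fold change was 1.11 ± 0.20 (edgeR unadjusted p = 0.000177, adjusted p = 0.451), and 1.21 in the low-content libraries alone. DESeq2 called Capn3, and so did edgeR without the filter on low counts. The log2 fold change stayed between 0.93 and 1.23 when each library was left out. It shares its strand with the overlapping gene Ganc, so reads of both could be mixed.

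Exd1, whose product is part of the piRNA pathway of the mouse germ line, lies within 5 Mb of Capn3 on the minus strand. It stood at 3.69, 3.23, 2.77 and 2.37 CPM under the knockout label and at 1.79, 1.42, 1.44 and 1.24 CPM under the wild-type label. These groups did not overlap either, at a log2 fold change of 0.93 ± 0.18 (edgeR adjusted p = 0.523). Of 115 genes tested within 5 Mb of Capn3, 5 (4.35%) had an unadjusted p under 0.05, which is near the 3.88% of all tested genes.

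Colq, the collagen tail that anchors acetylcholinesterase in the synaptic cleft, was read at 33.8, 37.8, 41.3 and 33.9 CPM under the knockout label and at 25.4, 25.9, 25.7 and 23 CPM under the wild-type label. The libraries of each label kept close together, and the log2 fold change was 0.56 ± 0.12 (edgeR adjusted p = 0.654). Airn, the imprinted non-coding RNA that silences Igf2r on the paternal chromosome, had 1260, 1130, 1160 and 1100 CPM against 956, 790, 786 and 852 CPM, a log2 fold change of 0.43 ± 0.11 (edgeR adjusted p = 0.974). It overlaps Igf2r on the other strand, and the sources used here do not explain which strand setting was used in counting, so its reads cannot be told from those of its partner with certainty. The same limit holds for Hectd2os, antisense to Hectd2, at 386, 387, 463 and 516 CPM under the knockout label and 280, 350, 377 and 298 CPM under the wild-type label.

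The other 5 of the 10 higher genes were Vwa3a, Cenpa, Serinc2, Pla2g2f and Gpr152. Cenpa, the histone H3 variant of centromeres, had a log2 fold change of 0.48 ± 0.12 with groups that overlapped. Vwa3a averaged 16 ± 2.27 CPM under the knockout label and 8.71 ± 2.83 CPM under the wild-type label (SD, n = 4 each). Serinc2, Pla2g2f (a secreted phospholipase) and Gpr152 (an orphan receptor) were near the floor, with at most 0.662 CPM in any library. In all, the groups did not overlap for 8 of the 10 higher genes, all but Cenpa and Serinc2, and for 5 of the 10 lower genes described next, against 1.6% of all tested genes. Since the smallest p chose these genes, that count is a description.

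**Figure D2:**
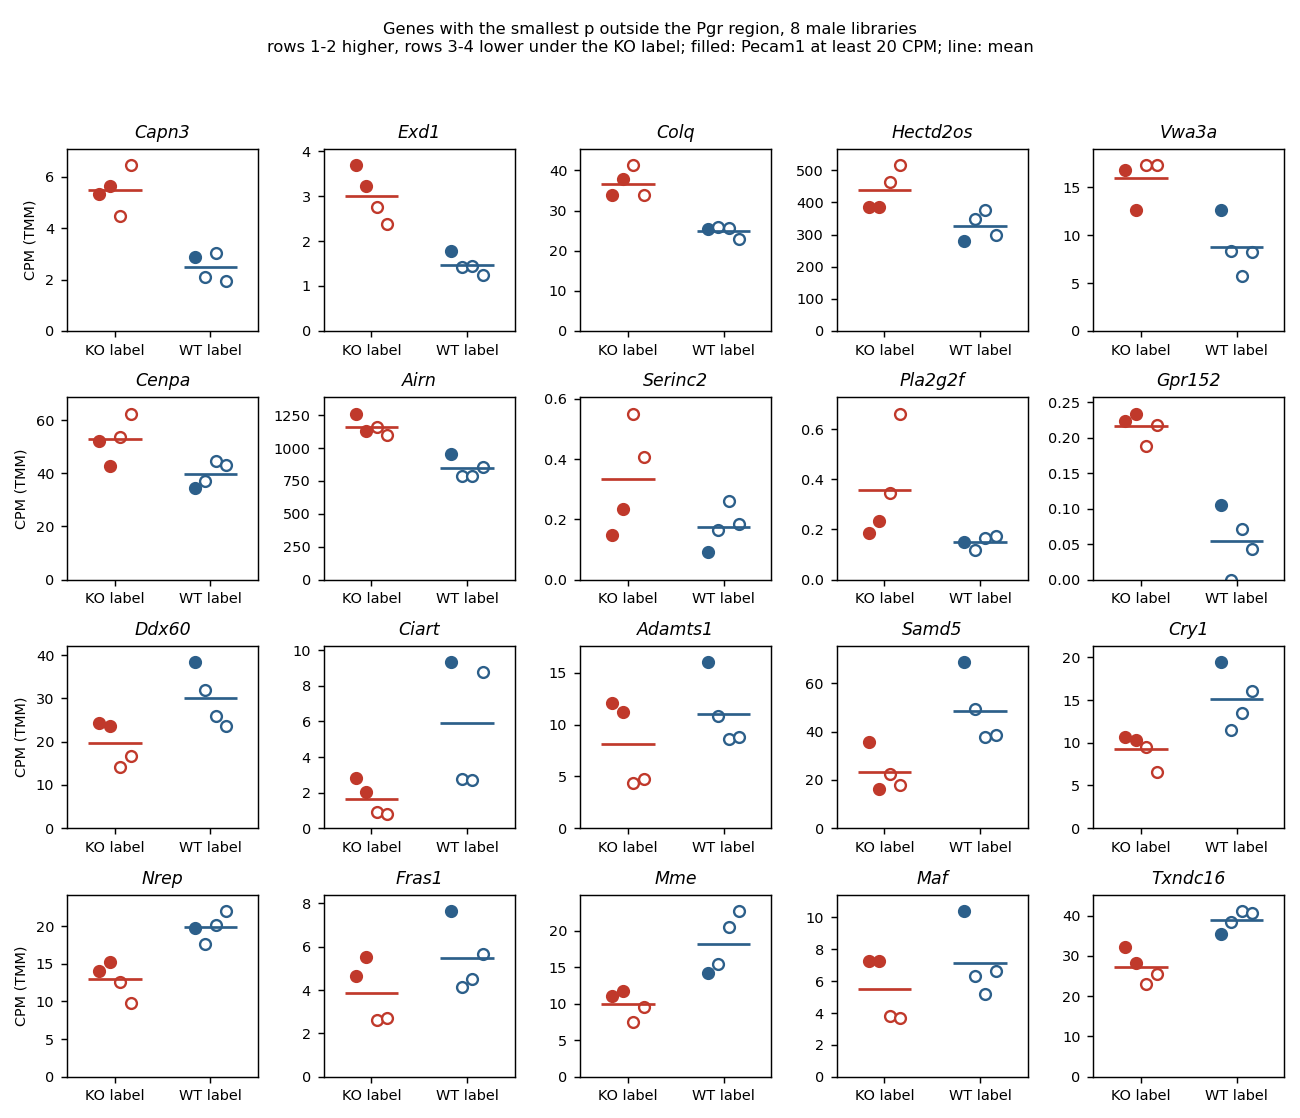
Each panel shows 1 gene in the 8 male libraries in CPM on TMM library sizes, the knockout label at the left and the wild-type label at the right, with a line at the mean of 4. Filled points are libraries with Pecam1 of at least 20 CPM. Upper rows hold the 10 higher genes, led by Capn3 between 4.48 and 6.46 CPM under the knockout label, and lower rows the 10 lower ones.

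Among the lower genes, Samd5 had the largest log2 fold change of those whose groups did not overlap. Samd5 (chromosome 10, 9622936 to 9675208, minus strand) encodes a protein with a sterile alpha motif. It stood at 35.7, 16.3, 22.6 and 17.7 CPM under the knockout label and at 68.7, 49.5, 37.8 and 38.5 CPM under the wild-type label. Every knockout-labelled library was below every wild-type-labelled one, and within each content level the order was the same. The log2 fold change was -1.19 ± 0.23 (edgeR adjusted p = 0.523), and -1.07 in the low-content libraries alone. The gene was called with the replicate block besides the term, by DESeq2 and by edgeR without the filter on low counts.

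Other tested genes near Samd5 had low p-values too. Within 5 Mb of it, 7 of 56 tested genes (12.5%) had an unadjusted p under 0.05, against 3.88% of all tested genes. They were picked out after their values were seen. Of these 7, 6 were lower under the knockout label: the predicted genes Gm48748 at -0.87, Gm48751 at -1.09, Gm9930 at -1.16 and Gm48755 at -0.95, Ust at -0.24, and Esr1, the estrogen receptor alpha, at -0.61. Samd5 has the predicted gene Gm48760 on its other strand.

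Mme encodes neprilysin, a membrane peptidase that degrades natriuretic peptides. Its levels were 11, 11.7, 7.53 and 9.49 CPM under the knockout label and 14.2, 15.5, 20.5 and 22.7 CPM under the wild-type label. The groups did not overlap, at a log2 fold change of -0.90 ± 0.20 (edgeR adjusted p = 0.974). Ddx60, a helicase that takes part in antiviral RNA sensing, had the smallest p of any gene outside the region. It stood at 24.3, 23.5, 14.1 and 16.7 CPM under the knockout label and at 38.3, 32, 25.9 and 23.7 CPM under the wild-type label, and knockout 1 lay above wild type 4. Within each content level the knockout-labelled libraries were lower, and the log2 fold change with the term was -0.77 ± 0.13 (edgeR unadjusted p = 0.000113, adjusted p = 0.406).

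Adamts1, a secreted protease of the extracellular matrix, is known in the mouse ovary as a gene that needs the progesterone receptor. Its levels were 12.1, 11.2, 4.4 and 4.7 CPM under the knockout label and 16, 10.8, 8.58 and 8.76 CPM under the wild-type label. The high-content libraries were high under either label, so the groups overlapped, and the log2 fold change was -0.83 ± 0.16 with the term (edgeR adjusted p = 0.523) and -0.45 without it. Maf, a leucine-zipper transcription factor, and Fras1, a basement-membrane protein, overlapped in the same way, at -0.63 ± 0.15 and -0.74 ± 0.17. Nrep, at -0.69 ± 0.15, and Txndc16, a thioredoxin-domain protein, at -0.55 ± 0.13, had groups that did not overlap.

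The remaining 2 of the 10 lower genes, Ciart and Cry1, are repressors of the circadian clock. Ciart (chromosome 3, 95878503 to 95882251, minus strand) had a log2 fold change of -2.30 ± 0.40, the lowest among the 20 genes (edgeR unadjusted p = 0.000196, adjusted p = 0.451). Its levels were 2.8, 2.03, 0.897 and 0.823 CPM under the knockout label and 9.32, 2.78, 2.71 and 8.76 CPM under the wild-type label. Wild type 1 and 4 were far above the rest, and wild type 2 and 3 lay beside knockout 1. Without wild type 4 edgeR called Ciart, and across the 8 fits without a library its fold change lay between -2.49 and -1.79. Cry1 stood at 10.7, 10.3, 9.52 and 6.62 CPM against 19.4, 11.5, 13.5 and 16 CPM, with no overlap and a log2 fold change of -0.81 ± 0.16 (edgeR adjusted p = 0.523). DESeq2 called Ciart, Cry1 and Per2, and so did edgeR without the filter on low counts.

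Clock genes as a group stood out among the 29 function lists by their share of low p-values. Of 18 tested core clock genes, 8 (44.4%) had an unadjusted p under 0.05 against 3.88% of all tested genes. Of these 8, 7 were lower under the knockout label (2.34% of all tested genes were) and 1 was higher. By edgeR with the term and the filter 0 passed the adjusted threshold. The median log2 fold change of the list was -0.22 beside -0.02 for all tested genes. Of the 16 clock output genes 8 (50%) were at an unadjusted p under 0.05, all of them lower, 14 of the 16 had values below zero, and the median was -0.44. Both lists were drawn up with earlier results of these data known, so their direction is not independent evidence.

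The repressors Per2, Per1, Nr1d2 and Bhlhe41 had values below zero and the activator Arntl a value above it. By edgeR with the term and the filter none of these passed the adjusted threshold. Per2, a repressor of the loop, stood at 32.3, 19.1, 20.4 and 14 CPM under the knockout label and at 64.8, 22.2, 32.1 and 50.4 CPM under the wild-type label, a log2 fold change of -1.14 ± 0.27. Its highest knockout-labelled library lay above wild type 2 and 3. Per1 had 25.8, 15.3, 9.03 and 17.6 CPM against 40.2, 13.8, 17.7 and 28 CPM, at -0.72 ± 0.29. The nuclear receptor Nr1d2 had 244, 208, 235 and 234 CPM against 249, 289, 390 and 302 CPM, with no overlap, at -0.36 ± 0.14. Bhlhe41, another repressor, was at -0.41 ± 0.16.

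Arntl, which encodes the activator BMAL1, stood at 63.2, 52.5, 69.1 and 69.8 CPM under the knockout label and at 62.4, 42.1, 23.3 and 24.9 CPM under the wild-type label. Wild type 3 and 4 were low and wild type 1 lay among the knockout-labelled libraries, so the groups overlapped. Its log2 fold change was 0.72 ± 0.28 (edgeR unadjusted p = 0.0294, adjusted p = 0.974), and 1.20 in the low-content libraries alone. Its partner Clock, at 0.24 ± 0.15, and Nr1d1, a repressor of Arntl, at 0.24 ± 0.15, did not reach an unadjusted p of 0.05.

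Among the output genes were the PAR-domain factors Tef, Dbp and Hlf. Tef stood at 137, 109, 109 and 96.1 CPM under the knockout label and at 189, 123, 152 and 240 CPM under the wild-type label, a log2 fold change of -0.70 ± 0.20. Dbp had 27.2, 33, 28.4 and 27 CPM against 51.8, 21.9, 47.2 and 67.1 CPM, at -0.74 ± 0.29. Wild type 2 was the lowest of all 8 libraries for Dbp, while the other 3 wild-type-labelled libraries lay above every knockout-labelled one. Nampt, the rate-limiting enzyme of NAD salvage, was at -0.54 ± 0.16, and Wee1, a cell-cycle kinase under clock control, at -0.53 ± 0.20 with groups that did not overlap.

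The count of lower clock genes depended on which libraries entered. Leaving out each library in turn gave 4 to 8 lower core clock genes at an unadjusted p under 0.05, with 4 without knockout 3 or knockout 4, and medians between -0.25 and -0.14. For the output list the count ran from 4, without knockout 4 or wild type 4, to 9, with medians between -0.56 and -0.29. In the 5 low-content libraries alone the medians were -0.19 and -0.57. No label gives the time of day at which tissue was taken, and its part in these values was not tested.

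**Figure D3:**
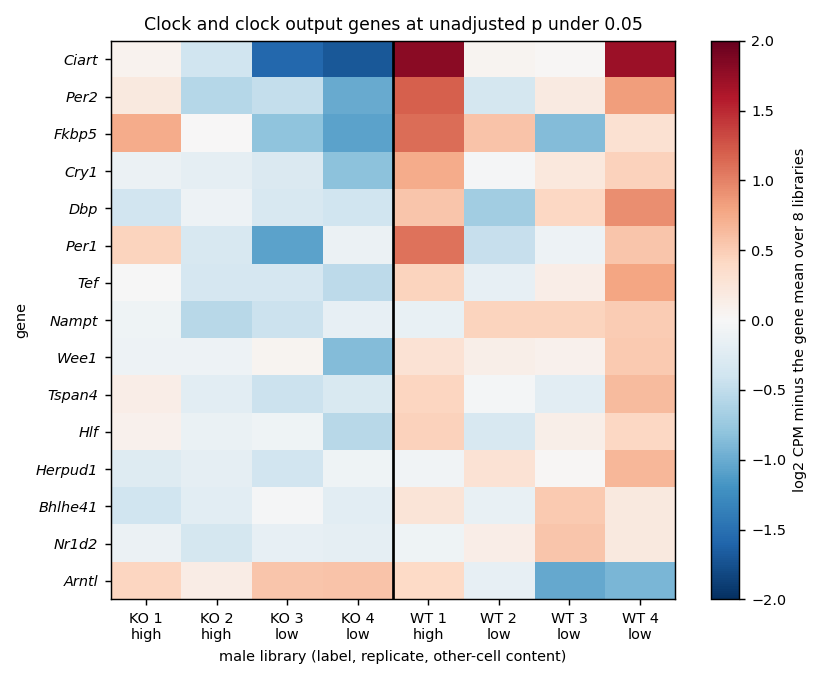
Rows are core clock and clock output genes with an unadjusted edgeR p under 0.05, and columns the 8 male libraries, 4 labelled knockout at the left and 4 labelled wild type at the right, with their other-cell content. Colour gives log2 CPM minus the mean of the gene over the 8 libraries. Wild type 1 and 4 are red for Ciart and Per2, Arntl runs the other way in wild type 3 and 4, and wild type 2 is blue for Dbp.

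Promoters of 4 of these lower genes, chosen for their roles among those that hold the E-box CACGTG, the element of CLOCK and BMAL1, are shown here. They are 300-base windows around the annotated start, from RefSeq on GRCm38.p6, printed 5′ to 3′ on the strand of the gene, with CACGTG in capitals. Ciart lies at chr3:95882179-95882478 (minus strand), Cry1 at chr10:85185005-85185304 (minus), Per1 at chr11:69098699-69098998 (plus) and Tef at chr15:81811164-81811463 (plus).
Ciart: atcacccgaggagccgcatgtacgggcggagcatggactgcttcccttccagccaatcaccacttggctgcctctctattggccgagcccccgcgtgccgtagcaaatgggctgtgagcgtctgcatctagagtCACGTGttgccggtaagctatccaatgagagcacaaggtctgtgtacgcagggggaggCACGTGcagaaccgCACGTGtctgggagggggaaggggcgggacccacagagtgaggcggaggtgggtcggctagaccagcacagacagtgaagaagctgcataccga
Cry1: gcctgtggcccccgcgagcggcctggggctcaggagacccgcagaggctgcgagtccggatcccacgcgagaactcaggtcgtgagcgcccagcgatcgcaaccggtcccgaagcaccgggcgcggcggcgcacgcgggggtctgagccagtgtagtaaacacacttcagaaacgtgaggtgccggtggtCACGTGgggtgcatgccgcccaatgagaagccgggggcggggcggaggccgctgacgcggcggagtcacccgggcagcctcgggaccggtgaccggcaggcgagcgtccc
Per1: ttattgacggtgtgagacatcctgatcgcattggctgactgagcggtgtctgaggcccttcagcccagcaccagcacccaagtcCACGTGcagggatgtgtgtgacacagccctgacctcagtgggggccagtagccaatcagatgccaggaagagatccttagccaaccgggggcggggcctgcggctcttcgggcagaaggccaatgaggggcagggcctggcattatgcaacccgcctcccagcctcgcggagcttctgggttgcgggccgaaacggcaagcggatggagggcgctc
Tef: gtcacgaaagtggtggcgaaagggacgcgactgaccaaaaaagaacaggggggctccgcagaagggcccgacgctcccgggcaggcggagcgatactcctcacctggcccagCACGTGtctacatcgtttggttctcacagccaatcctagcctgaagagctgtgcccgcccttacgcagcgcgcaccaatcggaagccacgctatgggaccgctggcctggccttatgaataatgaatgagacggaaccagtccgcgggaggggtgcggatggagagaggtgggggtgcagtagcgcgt

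The window of Ciart holds 3 E-boxes and each of the others shown holds 1. The windows of the lower genes Dbp, Hlf, Nampt and Nr1d2 hold none, nor does another window of Per1. CACGTG reads the same on both strands. It was found in 4 of 20 promoters of the core clock list (20%) and in 7 of 24 of the output list (29.2%), against 1457 of 15814 promoters of all tested genes (9.21%). Of the 20 genes named above 15 had a promoter to search, and 2 of their 20 promoters (10%) held it. A spaced palindrome of steroid receptor elements, ACANNNTGT, also the same on both strands, was found in 0 of these 20 promoters. In the core clock list 0 of 20 promoters held it, and in the output list 2 of 24 (8.33%), both of 1 gene. Over all tested genes 735 promoters (4.65%) did. The 18026 tested genes carry 18016 distinct symbols, of which 12413 had a promoter in the table, some of them more than 1. A match is a description of these letters only.

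Steroid receptors had mostly negative values of small size. Of 18 tested steroid and membrane progesterone receptors and cofactors other than Pgr, 15 had values below zero, 3 of them at an unadjusted p under 0.05 (16.7%), with a median of -0.14. The 3 were Fkbp5, a chaperone of steroid receptors, at -0.92 ± 0.30, the membrane progestin receptor Paqr9 at -0.35 ± 0.15 and Esr1 at -0.61 ± 0.26. Paqr9 stood at 26.6, 22.9, 26 and 30.7 CPM under the knockout label and at 24.7, 41.7, 36.3 and 44.9 CPM under the wild-type label, where wild type 1 lay among the knockout-labelled libraries. The count of 3 ran from 0, without knockout 4, to 4 over the fits without 1 library.

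Fkbp5 is also induced by glucocorticoids and stood on the clock output list. It had 13.1, 7.88, 4.5 and 3.74 CPM under the knockout label and 16.9, 11.6, 4.29 and 9.62 CPM under the wild-type label, so the groups overlapped. Of 19 glucocorticoid-responsive genes 15 had values below zero (median -0.21). Fkbp5 and Per1 were the lower ones at an unadjusted p under 0.05, and Ddit4, an inhibitor of the growth kinase mTORC1, was the higher one at 0.49 ± 0.22. Of 19 tested genes known as progesterone receptor targets in the uterus, 0 had an unadjusted p under 0.05, with a median of -0.15, or -0.04 without the content term. Smallest in p were the nuclear receptor Nr2f2 at -0.78 ± 0.40 and the EGF receptor inhibitor Errfi1 at -0.34 ± 0.18. Without the content term Nr2f2 turned to 0.11 and Errfi1 was at -0.09.

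Contractile genes had mostly positive values of small size. Of 24 adult sarcomere genes 21 were above zero (8307 of 18026 over all tested genes). Their median log2 fold change was 0.20, and 2 had an unadjusted p under 0.05 (8.33%). Csrp3, a Z-disc protein of mechanical sensing, had 412, 424, 476 and 467 CPM under the knockout label and 341, 368, 428 and 397 CPM under the wild-type label, at 0.26 ± 0.11. Actc1, cardiac actin, had 487, 638, 683 and 716 CPM against 516, 362, 523 and 557 CPM, at 0.39 ± 0.16. Both overlapped between the labels. The count of 2 was 6 without wild type 1, 4 without wild type 3 or 4, and 0 without knockout 2, 3 or 4 or wild type 2. Wild type 2, the library that stood apart, was the lowest for Actc1, and without it the list median was 0.08. The median was 0.10 with the replicate block besides the term and 0.11 without knockout 4.

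Fetal and stress-induced genes had values above zero in 15 of 21, with a median of 0.27 and 1 member at an unadjusted p under 0.05, the calcineurin inhibitor Rcan1 at 0.41 ± 0.15. Nppb, the B-type natriuretic peptide, was read at 67.9, 154, 143 and 163 CPM under the knockout label and at 68.3, 69.6, 149 and 95.2 CPM under the wild-type label, at 0.60 ± 0.30. Knockout 1 was as low as wild type 1 and 2, so the groups overlapped throughout. The median of this list was 0.03 with the replicate block besides the term, 0.10 without knockout 2, 0.09 without knockout 4 and 0.13 without wild type 2.

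All 13 tested mitochondrially encoded transcripts had values above zero (median 0.46), 4 of them at an unadjusted p under 0.05 (30.8%). The ribosomal RNA mt-Rnr1 stood at 2310, 3020, 1090 and 1120 CPM under the knockout label and at 1240, 864, 778 and 1050 CPM under the wild-type label. The high values were those of knockout 1 and 2, which carry high other-cell content, and its log2 fold change was 0.58 ± 0.19. Mitochondrial reads made up 0.404% to 1.12% of the knockout-labelled libraries and 0.391% to 0.506% of the wild-type-labelled ones. In the low-content libraries alone, and likewise without wild type 1, 9 of 13 were above zero, with a median of 0.16 and 0 members at an unadjusted p under 0.05. With the replicate block besides the term 10 of 13 were above zero, with a median of 0.19. The part of cytoplasmic carry-over in these nuclei was not tested.

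Metabolic lists of nuclear genes held no or single members at an unadjusted p under 0.05. Nuclear genes of oxidative phosphorylation were above zero in 35 of 43 (median 0.08), and the smallest p was that of Cox7a1, a subunit of complex IV in heart and muscle, at 0.54 ± 0.27. With the replicate block besides the term the direction turned, with 17 of 43 above zero and a median of -0.02, and without wild type 2 the median was 0.01. Fatty acid oxidation genes were below zero in 25 of 31 (median -0.16) with 0 members at an unadjusted p under 0.05, and the smallest p were those of Slc25a20, the mitochondrial carnitine carrier, at -0.39 ± 0.19 and the reductase Decr1 at -0.44 ± 0.23. Without wild type 4, 17 of 31 were below zero (median -0.08), while without wild type 3, 26 of 31 were (median -0.25), 9 of them at an unadjusted p under 0.05. The block besides the term left 20 of 31 below zero (median -0.08). Single genes were Pdk1, a kinase that inhibits pyruvate dehydrogenase, at -0.30 ± 0.12, and Idh1, the cytosolic isocitrate dehydrogenase, at -0.29 ± 0.11. Idh1 did not overlap between the groups, at 41, 38.7, 44.5 and 38.5 CPM under the knockout label and 45.4, 52.7, 52.6 and 52.4 CPM under the wild-type label.

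**Figure D4:**
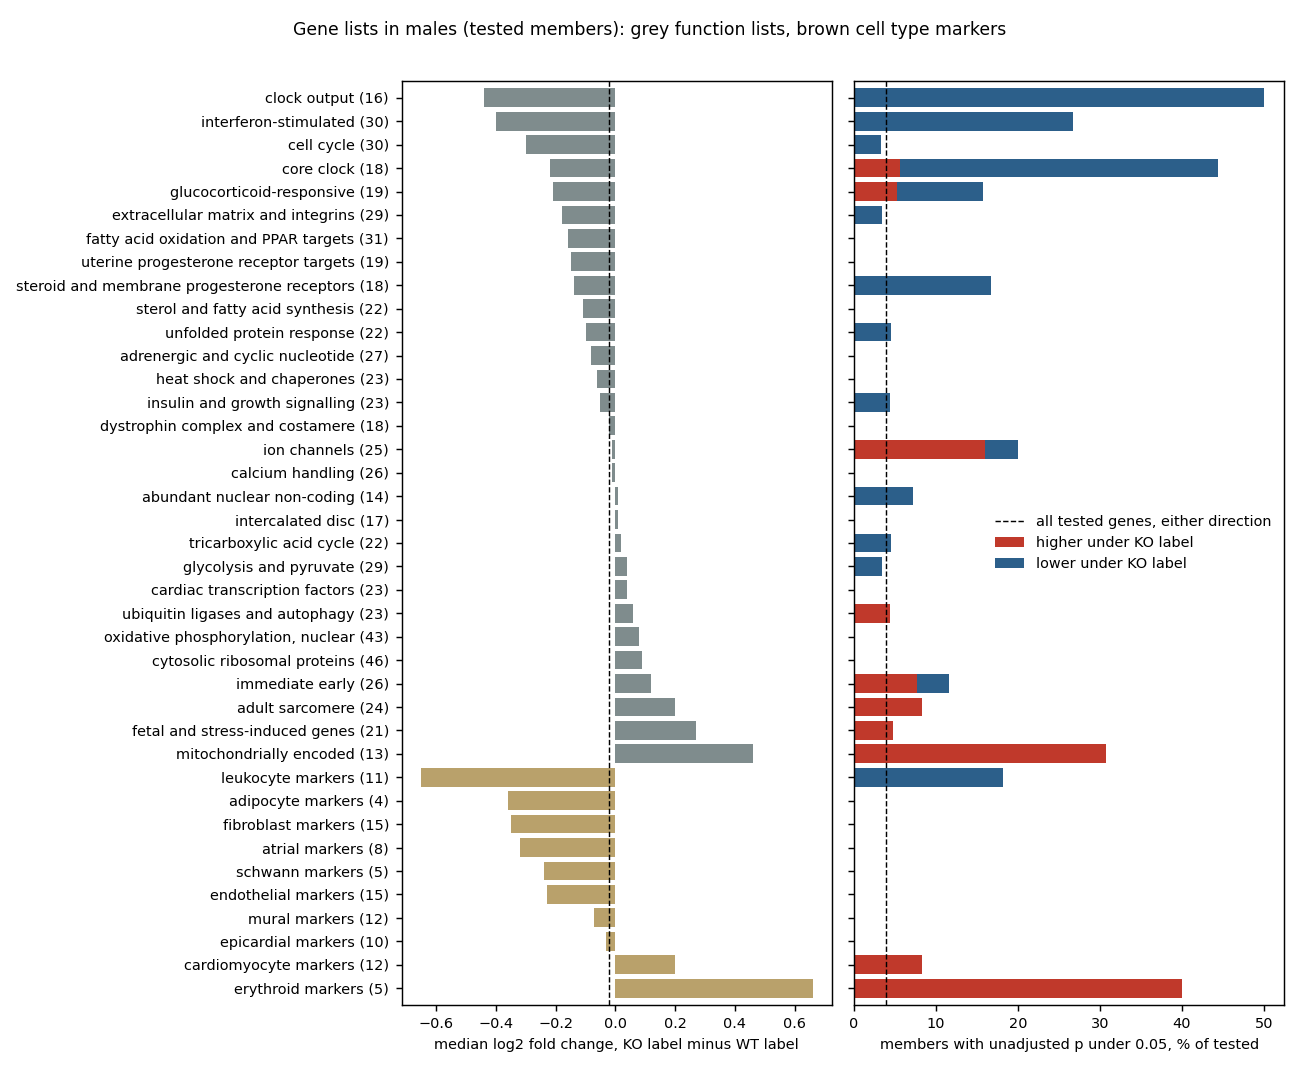
Left, the median log2 fold change (knockout minus wild-type label) of the tested members of each list, with the number of members in brackets, and right, the share of members with an unadjusted edgeR p under 0.05, split by direction. Dashed lines give the same over all tested genes (-0.02 and 3.88%). Clock output, core clock and interferon-stimulated lists reach 50%, 44.4% and 26.7%, mostly lower. Erythroid markers and mitochondrially encoded transcripts reach 40% and 30.8%, all higher.

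Ion channel genes had no common direction. Of 25 tested, 5 (20%) had an unadjusted p under 0.05, 4 of them higher and 1 lower under the knockout label, and the list median was -0.01. Among the higher ones Kcnk3, a background potassium channel, stood at 161, 129, 168 and 166 CPM under the knockout label and at 142, 111, 126 and 128 CPM under the wild-type label, at 0.30 ± 0.13. Knockout 2 lay below wild type 1, so the groups overlapped. Kcne1, a subunit of the slow delayed rectifier, had 1.79, 1.99, 2.86 and 4.84 CPM against 2.4, 1.19, 1.67 and 1.8 CPM, at 0.72 ± 0.32, and its groups overlapped as well. The number of higher channel genes ran from 0, without knockout 3, knockout 4 or wild type 2, to 5, without wild type 1.

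Immediate early genes, which respond within minutes to stimuli, were mixed. Dusp5, a phosphatase of ERK, was at 13.4, 10.8, 14.5 and 17.1 CPM under the knockout label and at 10.6, 9.92, 10.1 and 9.07 CPM under the wild-type label, with no overlap, at 0.52 ± 0.15. Nr4a1, a nuclear receptor, had 35.6, 8.58, 29 and 25.9 CPM against 11.6, 12.8, 16 and 6.52 CPM, at 1.11 ± 0.46, and knockout 2 lay among the wild-type-labelled libraries. With the replicate block besides the term, and without the filter on low counts, edgeR called Nr4a1. Klf6 was lower at -0.37 ± 0.16, and the median of 26 members was 0.12, or -0.19 without knockout 4.

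Interferon-stimulated genes were below zero in 26 of 30, with a median of -0.40 and 8 members (26.7%) at an unadjusted p under 0.05, all lower. Ifi44 stood at 1.38, 1.34, 0.535 and 0.546 CPM under the knockout label and at 2.18, 1.09, 0.801 and 0.853 CPM under the wild-type label, at -0.72 ± 0.21. Oas2, an enzyme that activates RNA decay in antiviral defence, had 2.2, 1.21, 0.267 and 0.298 CPM against 6.59, 0.855, 0.165 and 0.313 CPM, at -1.24 ± 0.45. Wild type 1 was the highest library for both genes, and the remaining libraries overlapped. Without wild type 1 the number of lower members at that p was 3 and the median -0.27. Without the content term 0 members were lower at that p and the median was -0.11, and in the low-content libraries alone 1 of 25 was. With the replicate block without the term the direction turned, with 16 of 30 above zero and a median of 0.06, and with the block and the term 4 members were lower at that p (median -0.24). The numbers without each other library ran from 3, without knockout 2, to 17, without wild type 3.

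Markers of macrophages followed the same libraries. Of 11 tested leukocyte markers 9 were below zero with the term (median -0.65). The median was -0.10 without the term, -0.29 without wild type 2 and -0.38 with the replicate block and the term, and it turned to 0.13 with the block without the term. Among the 9 was Cd163, a macrophage scavenger receptor, at 2.91, 3.65, 0.393 and 0.4 CPM under the knockout label and 5.94, 1.95, 0.354 and 0.604 CPM under the wild-type label. Wild type 1 was again the highest library, and wild type 2 the highest of those with low content. The summed leukocyte level was up to 127 CPM under the knockout label and up to 170 CPM under the wild-type label. Its part in the interferon-stimulated values was not tested. The 5 tested erythroid markers were all above zero (median 0.66), with Hba-a2 and Hba-a1, the alpha globins, at 0.75 ± 0.28 and 0.69 ± 0.27 and an unadjusted p under 0.05. Without knockout 3 or wild type 3 no erythroid marker reached that p.

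Of the 29 function lists, 11 had 0 members at an unadjusted p under 0.05 and medians between -0.16 and 0.09. Besides those above they were calcium handling (26 genes, median -0.01), intercalated disc (17, 0.01), dystrophin complex (18, -0.02), cardiac transcription factors (23, 0.04), heat shock (23, -0.06), cytosolic ribosomal proteins (46, 0.09), adrenergic signalling (27, -0.08) and sterol synthesis (22, -0.11). A further 9 lists had 1 such member each. They include Herpud1 of the unfolded protein response at -0.43 ± 0.16, Pik3r1, a regulatory subunit of PI3-kinase, at -0.29 ± 0.13, the cyclin Ccnd2 at -0.39 ± 0.12 and the basement-membrane gene Nid2 at -0.55 ± 0.16, which turned to 0.06 without the content term. Capn3 was the single member of the ubiquitin ligase and autophagy list. A share near 3.88% is what all tested genes show.

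The female libraries, which the male fit did not use, gave mixed values for the 20 named genes. Their label effect was estimated in a fit of all 15 libraries with the content term. There, 1 of 17455 tested genes (0.00573%), Pgr, was called in females and 2 (0.0115%), Pgr and Gm32014, in males. That fit shares its content term and dispersion between the sexes, so the female estimates are not independent of the male libraries. Ddx3y, a gene of the Y chromosome, stood at 2.11 CPM in female knockout 2 and at 1.79 CPM in female wild type 2. It was at most 0.283 CPM in the other female libraries and at least 53.2 CPM in the male ones. Of the 10 genes higher in males, 5 had the same sign in females and 0 of these an unadjusted p under 0.05. Of the 10 lower ones, 4 had the same sign, 2 of them at an unadjusted p under 0.05. Over all tested genes 2.94% of genes had an unadjusted p under 0.05 in females.

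Samd5 and Adamts1 were those 2 genes. In females Samd5 stood at 15.7, 40.2, 38.4 and 44.8 CPM under the knockout label and at 59, 64.3 and 68.6 CPM under the wild-type label, with no overlap. Its log2 fold change was -0.89 ± 0.32 in females (edgeR unadjusted p = 0.0153, adjusted p = 1). Adamts1 had 9.76, 18.9, 6.56 and 7.04 CPM against 16.1, 13.3 and 12.3 CPM, overlapping through knockout 2, at -0.67 ± 0.22 (edgeR unadjusted p = 0.00881, adjusted p = 1). The male minus female differences were -0.21 ± 0.45 for Samd5 and -0.12 ± 0.30 for Adamts1.

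Capn3 had the opposite sign in females. It stood at 3.27, 0.948, 1.56 and 1.78 CPM in the female libraries labelled knockout and at 3.77, 3.7 and 5.17 CPM in those labelled wild type. All 4 knockout-labelled female libraries lay below the 3 wild-type-labelled ones, at a log2 fold change of -1.19 ± 0.32 (edgeR unadjusted p = 0.00208, adjusted p = 1). The male minus female difference was 2.31 ± 0.43, with an unadjusted p of 7.48e-05 and an adjusted p of 0.906 over 17455 genes (edgeR). Over all genes edgeR called 0 such differences (0%) with the term and 0 without it, and limma-voom 0, while 719 genes (4.12%) had an unadjusted p under 0.05.

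Other named genes that differed in sign between the sexes were less separated. Fras1 was at 0.25 ± 0.19 in females and its male minus female difference at -1.04 ± 0.26 (edgeR unadjusted p = 0.00112, adjusted p = 0.906). Mme was at 0.66 ± 0.35 in females, with a difference of -1.42 ± 0.47, and Exd1 at -0.38 ± 0.25, with a difference of 1.29 ± 0.33. Cry1 and Ciart had the male sign in females, at -0.47 ± 0.32 and -0.51 ± 0.74, with wide errors. In females the median of the clock output list was -0.03 and that of the core clock list -0.14. The sarcomere, fetal and mitochondrially encoded lists had female medians of -0.17, -0.34 and -0.44. In males their medians in the same 15-library fit were 0.19, 0.26 and 0.45. In the fit of the male libraries alone, leaving out 1 library lowered them to as little as 0.08, 0.09 and 0.16. The sign also differed for nuclear oxidative phosphorylation (-0.11 in females, 0.09 in males), ribosomal proteins (-0.08 and 0.1) and fatty acid oxidation (0.08 and -0.12). It was the same for heat shock (-0.23 and -0.12) and the unfolded protein response (-0.14 and -0.11). The wild-type label holds only 3 female libraries, and no difference of a list between the sexes was tested.

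**Figure D5:**
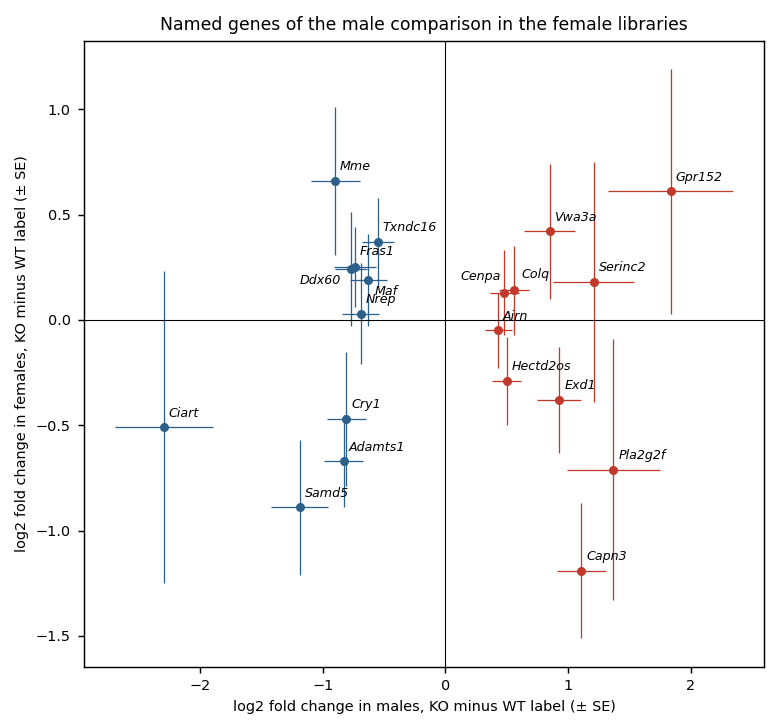
Points are the 20 named genes, with the log2 fold change (knockout minus wild-type label) in males on the horizontal axis and in females on the vertical axis. Bars are 1 SE. Male values come from the fit of the 8 male libraries, and female values from the fit of all 15 libraries with a shared content term. Red genes were higher and blue genes lower in males. Samd5 and Adamts1 lie at the lower left and Capn3 at the lower right.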

How the data were processed

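Raw counts per gene of 15 libraries were deposited by the authors, without normalisation; per the submitters' processing notes they used STAR 2.5.3a and featureCounts 1.5.0 on GRCm38 (mm10). Each gene's length in the table spans its whole body. The strand setting of the counting is not explained in the sources used here. From the larger table of 55536 genes, 8 male libraries entered edgeR 4.0.16 in R 4.3.3 (filterByExpr, TMM, robust quasi-likelihood fit, Benjamini-Hochberg adjustment) with the label and a term for Pecam1 of at least 20 CPM, which left 5 residual degrees of freedom. Levels are CPM on TMM library sizes, positions are those of the table, and SE is the estimate divided by the root of its F statistic. Sex differences came from a fit of all 15 libraries with 10 residual degrees of freedom. Floors of 3 counts cover counting error only, while the SE of a fold change includes the spread between libraries.

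On data simulated from the male libraries (17710 genes), 60% of 100 genes changed 2-fold and 88.5% of 96 changed 4-fold were recovered, beside 15 false calls. The counts were drawn from the fitted means and dispersions, with all of these genes changed at once. The shares therefore describe the model and do not give the power of the comparison in the real libraries.

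The named genes are Pgr, genes near it, the 10 higher and 10 lower genes with the smallest p over 20 Mb from Pgr without predicted names, and up to 2 members of each list. The members and the 29 function and 10 cell type lists were chosen with earlier results of these data known. Predicted genes and list members beyond that rule were named after their values were seen. Some genes are not reported here by name or value; the counts and medians of the lists include them.

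Replicate numbers come from the column labels. Deviations of same-numbered knockout and wild-type libraries from their group means correlated at 0.663, 0.149, 0.624 and 0.637. Differently numbered libraries ranged from -0.749 (knockout 3 with wild type 1) to 0.749 (knockout 2 with wild type 1). After the content term the same-numbered correlations were -0.539, 0.2, -0.0958 and 0.272. Wild type 1 is the only wild-type-labelled library of high content. What the fit leaves over for it is therefore the negative sum of what it leaves for knockout 1 and 2. The fit ties the other libraries of a label or level as well, so these correlations cannot decide whether the numbers mark pairs. The values before the term do not show pairs, and the numbers were a block in alternative fits only. With the term besides the block, only the libraries numbered 2 differed in content level, and the term took up their difference. DESeq2 1.42.0, limma 3.58.1, sva 3.50.0, other scalings, filters and left-out libraries were alternatives.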

Additional observations from a re-analysis of the deposited data

Results flagged for a closer look

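In 9 of 150 groups of 4 libraries (6%; chance gives about 1 in 20), 1 library lay far from the other 3, and 5 of these 9 were wild type 1, the wild-type-labelled library with high other-cell content. In wild type 1, Oas1a stood at 1.79 CPM against 0.0236 to 0.173 CPM in the other 3 wild-type libraries. Ccnd2 stood there at 30.9 CPM against 12.3 to 14 CPM, and Nid2 at 16.8 CPM against 5 to 6.6 CPM. Nampt was low in it at 117 CPM against 176 to 184 CPM, and so was Idh1 at 45.4 CPM against 52.4 to 52.7 CPM. In wild type 4 Pdgfd was high at 149 CPM against 110 to 114 CPM. Uqcrq was low in wild type 2 at 13.2 CPM against 18.1 to 19.1 CPM. Under the knockout label, Vwa3a was low in library 2 at 12.6 CPM against 16.8 to 17.3 CPM, and Hspa8 in library 3 at 63.6 CPM against 78.8 to 80.6 CPM.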

How the results depend on the processing

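With 2 genes called in the comparison, edgeR called 0 without the content term, 0 in the low-content libraries alone, 0 with the replicate block without the term, 8 with the block and the term, 1 with at least 1 CPM in 4 libraries and 249 without a filter; DESeq2 called 28 and limma-voom 4. Beyond 20 Mb of Pgr the count of 0 became 4 with the replicate block and the term, 22 with DESeq2 and 236 without a filter. Leaving out each library gave 0 to 4 calls in all, 0 without knockout 4 or wild type 1 and 4 without knockout 2, and 0 to 1 beyond the region. The log2 fold change of Pgr was 6.24 to 7.70 over these fits. It lost its call without the term (6.77, edgeR adjusted p = 0.613), in the low-content libraries alone (7.31, edgeR adjusted p = 0.272) and with the replicate block without the term (6.88, edgeR adjusted p = 0.193). The 8 calls with the block and the term were Pgr, Gm32014, Pdgfd, Gm26870, Samd5, Dbp, Nr4a1 and Gm16685, and without the term Pgr and Gm32014 lost their calls; the block changed no other call. Under no term and under the block without the term, Nr2f2 turned to 0.11 and 0.11, and Pde3b to 0.19 and 0.09; Nid2 turned to 0.06 under no term. The causes were not tested. Of the values of the named genes other than Pgr under other settings, 1562 kept direction and call, 46 gained a call, 5 lost it, all of them Gm32014, and 5 reversed. Other scalings moved the median of all genes by at most 0.02. Depth limits genes near 0.12 CPM, the highest floor.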
